A study of Mus musculus with 21 samples.

Results

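The members described here are the axon guidance ligands and receptors measured in the mouse dentate gyrus, taken by gene symbol: semaphorins (Sema), plexins (Plxn), ephrins (Efna, Efnb), Eph receptors (Epha, Ephb), Slit, Robo, Ntn and Unc5 genes with their number or letter, and *Nrp1*, *Nrp2* and *Dcc*. The Slitrk genes were left out, as were *Unc5cl*, *Unc50* and the netrin-G genes, whose symbols do not follow the scheme. The choice gave 68 genes, read by 151 probe sets, of 18193 genes with a named probe set. Each gene was read from its brightest probe set, and 55 of the 68 passed the filter on low signal and were tested among 12499 genes. The tested members were 15 of 20 semaphorins, 10 of 11 plexins and neuropilins, 7 of 8 ephrins, 9 of 13 Eph receptors, all 7 Slits and Robos, and 7 of 9 netrins and netrin receptors.

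These proteins steer growing axons and dendrites and continue to act at synapses in the adult hippocampus. Most secreted class 3 semaphorins bind neuropilins, which signal through A-type plexins, whereas the membrane-bound semaphorins bind plexins directly. Ephrins on one cell bind Eph receptor tyrosine kinases on another, Slits repel axons through Robo receptors, and netrins attract through Dcc or repel through Unc5 receptors. Dentate granule cells send their axons, the mossy fibers, to CA3, and semaphorins, plexins and neuropilins are known to place those fibers.

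The series has 21 Affymetrix arrays of total RNA from dentate gyrus, in 7 groups of 3, from transgenic mice that overproduce NgR (the Nogo receptor, gene *Rtn4r*), a neuronal receptor for myelin inhibitors of axon growth. The transgene sits behind a pTRE promoter, which the transactivator tTA drives and doxycycline silences. In set 1, bitransgenic mice had doxycycline withdrawn and received water ("removed"), bitransgenic mice had doxycycline in the diet throughout ("diet"), and NgR monotransgenic mice, which have no tTA, received water after doxycycline was withdrawn. In experiment 2, bitransgenic mice on water that had never met doxycycline were compared with monotransgenic mice on water. Set 3 holds bitransgenic and monotransgenic mice. The treatment in set 3, the promoter driving tTA, the strain, the age and the sex are unstated in the sources used here. Nothing in the labels says that arrays came from separate animals, so each p-value measures the spread between these arrays, which may be technical. Samples of experiment 2 are called by their label numbers (1, 2 and 8 monotransgenic; 7, 4 and 5 bitransgenic), and the replicate numbers 1 to 3 of the other groups are names only.

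Some arrays stood apart. *Rtn4r* lay between 254 and 1469 in the arrays with the transgene on in set 1, against 63.8 to 111 in the diet and monotransgenic arrays. It lay between 365 and 753 against 113 to 185 in experiment 2, and between 562 and 755 against 85.9 to 133 in set 3. All 11 dentate granule cell markers on the list were measured, with a mean log2 level per array of 9.75 to 10.46. The 3' to 5' actin signal ratio, a sign of RNA quality, ran from 4.63 to 5.12 on the log2 scale in set 1, from 4.84 to 6.45 in experiment 2 and from 4.17 to 4.63 in set 3. It was highest in samples 4 (6.45) and 1 (5.97) of experiment 2. *Xist*, which marks female cells, lay between 2361 and 4750 in experiment 2 and between 9.591 and 33.72 in the other sets. The Y-linked gene *Eif2s3y* lay between 0.3159 and 9.835 in experiment 2 and between 394.6 and 680.3 in the other sets. By both genes the arrays of experiment 2 read as female and those of sets 1 and 3 as male. Sex and set therefore cannot be told apart where experiment 2 is compared with another set.

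Markers of neighbouring tissue also differed between groups. The summed intensity of 4 measured meningeal and fibroblast markers was 702.5 to 861.9 in set 1 monotransgenic arrays, 81.69 to 108.8 in diet arrays and 57.48 to 94.08 in removed arrays. It was 149.5 to 585.4 against 83.42 to 136.7 in experiment 2, and 83.05 to 949.6 against 76.91 to 199.6 in set 3, monotransgenic first. Over the 3 sets, 3 of the 4 were lower with the transgene on, led by *Ogn*, which encodes a matrix protein of fibroblasts and fell by 2.61 ± 0.42 (log2 difference ± SE, limma adjusted p = 0.0164). The sum of 9 markers of CA3, CA2 and mossy cells was 2323 to 2602 in set 1 monotransgenic, 2918 to 3288 in diet and 3238 to 3857 in removed arrays. In experiment 2 it was 1914 to 3203 against 2910 to 3840, and in set 3 it was 2187 to 4244 against 3706 to 4745. These sums weight bright genes: over the 3 sets 5 of the 9 were higher and 4 lower, with a median log2 difference of 0.27. Of the 11 dentate granule cell markers 9 were lower over the 3 sets, with a median log2 difference of -0.20, none past the adjusted threshold. All 8 measured oligodendrocyte markers (median -0.19) and all 9 inhibitory neuron markers (median -0.12) were lower too, none past the threshold. The sum of 6 markers of neocortex and striatum was 895 to 962.6 in set 1 monotransgenic, 819.5 to 911 in diet and 1231 to 1636 in removed arrays, and in experiment 2 it was 741.4 to 1791 against 1560 to 2260. Of the 6, 3 were higher and 3 lower for removed against diet (median 0.01), and 4 were higher and 2 lower over the 3 sets (median 0.06). The sum of 6 CA1 markers was 655.3 to 698.2 in set 1 monotransgenic, 778.3 to 974.3 in diet and 909.3 to 1014 in removed arrays. It was 624.8 to 1265 against 1096 to 1495 in experiment 2, and 597.9 to 1501 against 1377 to 1637 in set 3. Among these CA1 markers, 3 were higher and 3 lower for removed against monotransgenic (median 0.03). Over the 3 sets 4 were higher and 2 lower (median 0.1). In set 3, monotransgenic replicate 2 had the lowest meningeal sum of its group (83.05, against 949.6 and 747.7) and the highest CA3 sum (4244, against 2329 and 2187), and its neocortex sum was 1784, against 717.4 and 863.8. No marker on these lists was at 0. The part of these tissue markers in the results below was not tested, and in bulk tissue fewer cells of a type and less RNA per cell cannot be told apart.

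No member passed the adjusted threshold of 0.05 in any of the 9 comparisons. The count was 0 of 55 in each, with limma's moderated test and Benjamini-Hochberg adjustment over all 12499 genes. Few genes passed at all: 0.0320% (removed against diet), 0.0720% (removed against monotransgenic) and 0.0240% (diet against monotransgenic) in set 1, 0.0960% in experiment 2, 0% in set 3 and 0.0720% for the mean of the 3 differences, 1 from each set, between transgene-on and monotransgenic arrays. The 3 comparisons of one set's difference with another's gave 0% each. The transgene's own gene, *Rtn4r*, also missed the threshold in experiment 2 (log2 difference 1.93 ± 0.4, limma adjusted p = 0.062). In set 3 it missed too (2.47 ± 0.4, limma adjusted p = 0.0616). *Rtn4r* passed for removed against monotransgenic (limma adjusted p = 0.032), removed against diet (limma adjusted p = 0.0405) and over the 3 sets (limma adjusted p = 2.46e-05). A count of 0 can therefore miss changes of that size. With array weights, which lower the influence of noisy arrays, 14 of 55 members passed over the 3 sets, against 11.0% of all genes. Single arrays also moved the count. Without sample 1 of experiment 2 it was 2 in experiment 2, where 658 of all 12496 genes passed (5.27%), and 3 over the 3 sets, where 217 passed (1.74%). Without sample 7 it was 4 in experiment 2, where 355 of 12492 genes passed (2.84%). Without set 3 monotransgenic replicate 2 it was 1 in set 3, where 73 of 12517 genes passed (0.583%), and 5 over the 3 sets (*Efnb2*, *Plxnc1*, *Robo1*, *Sema3e* and *Slit1*), where 316 passed (2.52%). It was 0 in the comparisons named above when any other array was left out. The array weights ran from 0.12 to 3.16 within experiment 2 and from 0.72 to 2.79 elsewhere. In the bitransgenic arrays of experiment 2 they were 0.52 (sample 7), 0.12 (sample 4) and 3.16 (sample 5). The weighted mean of that group, and the weighted counts that use it, thus rest largely on sample 5.

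At an unadjusted p under 0.05 the members were counted as follows, beside all genes. In set 1 the count was 9 of 55 (16.4%, against 5.04% of all genes) for removed against diet, 12 (21.8%, against 7.86%) for removed against monotransgenic and 5 (9.09%, against 3.85%) for diet against monotransgenic. These 3 comparisons share groups. In experiment 2 it was 8 (14.5%, against 14.4%), close to the background, and in set 3 it was 7 (12.7%, against 4.19%). Over the 3 sets it was 16 (29.1%, against 11.8%). The arrays of the groups did not overlap, on the normalized scale, for 17 members (30.9%, against 16.2% of all genes), 22 (40%, against 22.2%) and 12 (21.8%, against 14.9%) in the same order in set 1. For experiment 2 the figure was 3 members (5.45%, against 8.69%) and for set 3 it was 11 (20.0%, against 13.5%). The median SD of a member within a group was 0.19 to 0.20 log2 units in set 1, 0.34 in experiment 2 and 0.21 to 0.23 in set 3, against 0.14 to 0.16, 0.28 to 0.30 and 0.16 over all genes.

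**Figure D1:**
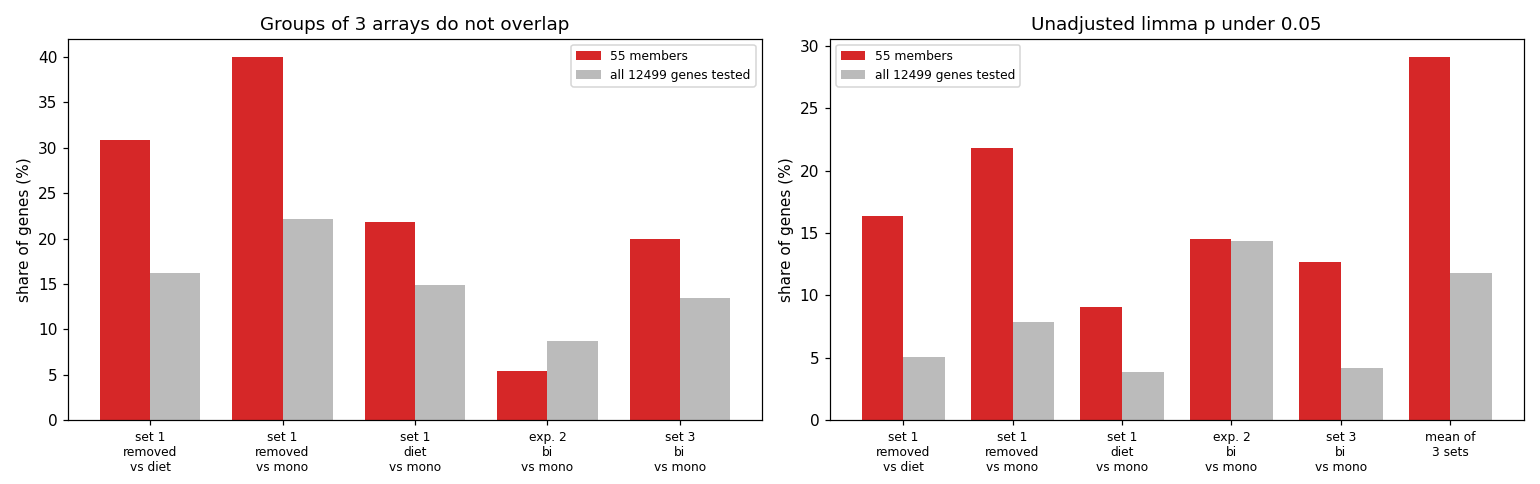
Share of genes (percent, bars from 0) among the 55 tested members (red) and all 12499 genes tested (grey). The left panel counts genes whose groups of 3 arrays do not overlap and the right panel those with an unadjusted limma p under 0.05. The members' bars are higher in set 1 and set 3, and in experiment 2 they are lower in the left panel (5.45% against 8.69%) and nearly level in the right (14.5% against 14.4%).

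Signs were split evenly. Over the 3 sets 28 members were higher and 27 lower, with a median log2 difference of 0.01, the same as the 0.01 of all genes. The controls of the 3 sets are separate arrays, and 22 of 55 members (40%) had one sign in all 3, 13 higher and 9 lower, against 29.7% of all genes. Among families, 11 of 15 semaphorins, 6 of 9 Eph receptors and 4 of 7 Slits and Robos were higher, against 51.6% of all genes. Lower were 5 of 7 ephrins, 6 of 7 netrins and netrin receptors and 6 of 10 plexins and neuropilins. With so few genes per family these counts do not establish a direction for any family.

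**Figure D2:**
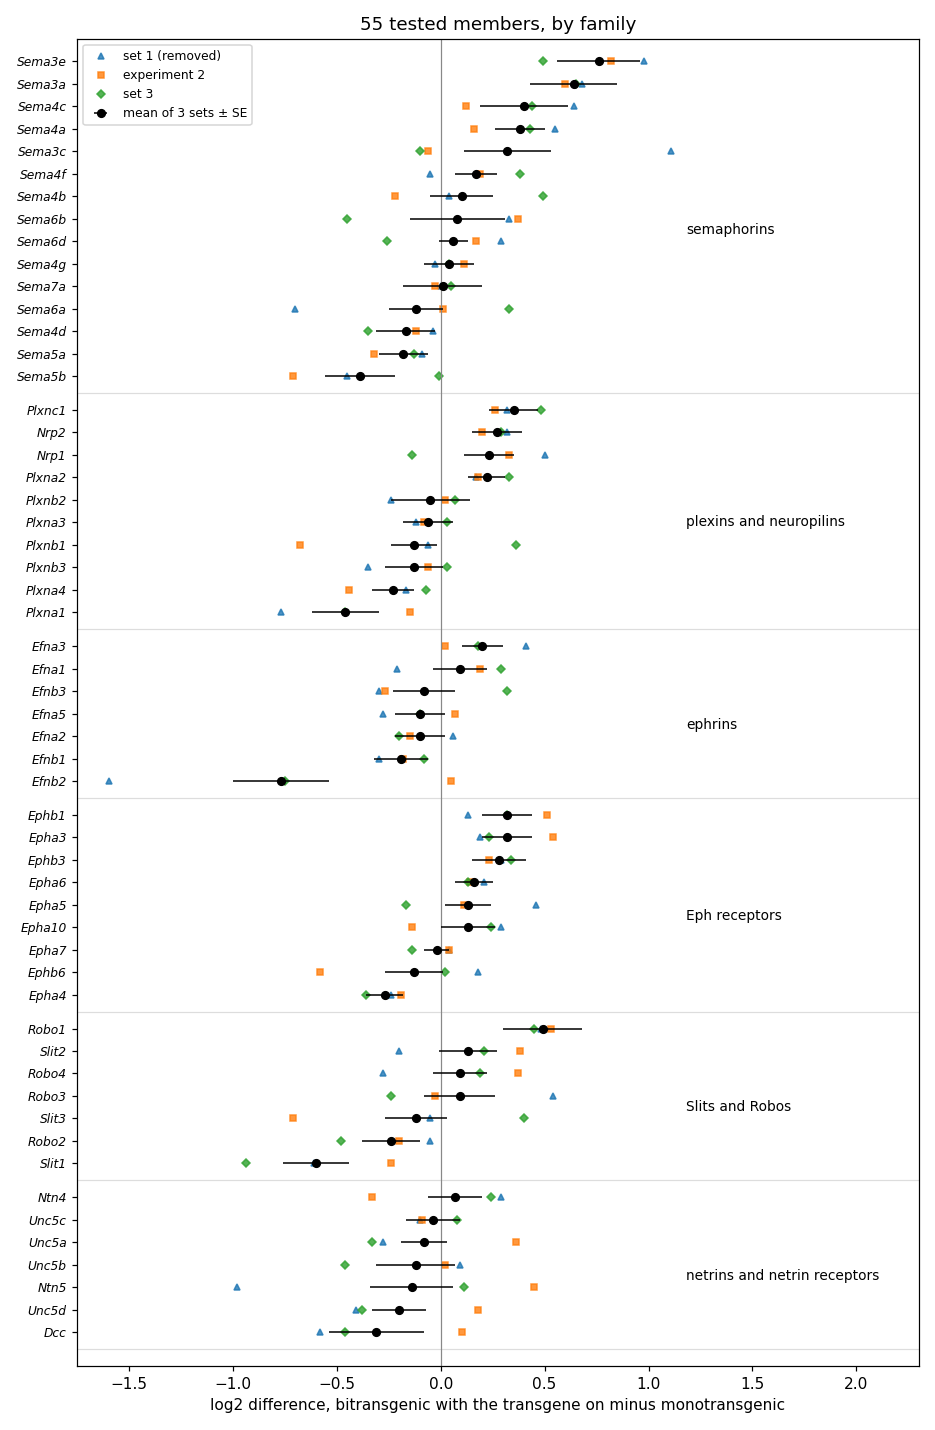
Log2 difference of each of the 55 tested members, bitransgenic with the transgene on minus monotransgenic, in set 1 (triangles), experiment 2 (squares) and set 3 (diamonds), with their mean and SE (black). Means run from -0.77 (Efnb2) to 0.76 (Sema3e), none past the adjusted threshold of 0.05.

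The semaphorin with the lowest p was *Sema3e*, a secreted ligand that binds plexin D1. Its deposited intensity was 87.5, 71.2 and 192 in set 1 monotransgenic arrays, 121, 88.8 and 202 in diet arrays and 196, 294 and 189 in removed arrays. In experiment 2 it was 212, 107 and 123 in monotransgenic and 237, 276 and 225 in bitransgenic arrays, and in set 3 it was 72.6, 125 and 83.3 against 124, 94.8 and 198. Each transgene-on group had a higher mean than its monotransgenic group. On the normalized scale these groups were narrowly apart in set 1 (7.71 against 7.67) and in experiment 2 (7.96 against 7.94). On deposited values the removed and monotransgenic arrays of set 1 overlapped, and removed and diet arrays overlapped on both scales. In set 3 the bitransgenic and monotransgenic arrays overlapped. The log2 differences were 0.98, 0.82 and 0.49, with a mean of 0.76 ± 0.20 (SE; limma adjusted p = 0.0954). A second probe set of *Sema3e* gave 0.68, 0.83 and 0.28. Its main receptor *Plxnd1* was under the filter, at 1.32 to 21.8 in all arrays.

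*Sema3a*, a repellent ligand of neuropilin 1, had means of 61.7 ± 32.2 (SD, n = 3) in set 1 monotransgenic and 99.4 ± 30.0 in removed arrays. They were 74.3 ± 30.1 and 104 ± 36.2 in experiment 2, and 44.6 ± 16.8 and 78.2 ± 18.3 in set 3. The 3 log2 differences were 0.68, 0.60 and 0.65, and the groups overlapped in every set, and the mean of 0.64 ± 0.21 had an adjusted p of 0.195 (limma). *Sema3c*, also secreted, was 180, 156 and 276 in set 1 monotransgenic arrays, 245, 186 and 410 in diet arrays and 426, 423 and 486 in removed arrays. The removed arrays all lay above both other groups (log2 differences of 1.11 ± 0.36 to monotransgenic, limma adjusted p = 0.331, and 0.73 ± 0.36 to diet). That order was absent elsewhere, with log2 differences of -0.06 in experiment 2, where sample 4 was at 615 and sample 7 at 170, and -0.10 in set 3. *Sema4a*, a membrane semaphorin, was 54.1, 57.9 and 60.6 in set 1 monotransgenic and 112, 82.9 and 72.5 in removed arrays, and 65.0, 86.2 and 72.1 against 132, 90.9 and 91.9 in set 3. Its groups did not overlap in either set but did in experiment 2, and the mean difference over the 3 sets was 0.38 ± 0.12 (limma adjusted p = 0.157).

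*Sema5b*, a membrane semaphorin with thrombospondin repeats, was 41.0, 65.4 and 26.5 in set 1 monotransgenic, 96.6, 45.8 and 58.2 in diet and 17.3, 30.4 and 31.0 in removed arrays. Removed arrays all lay below diet arrays (log2 difference -0.91 ± 0.30, limma adjusted p = 0.59). In experiment 2 samples 4 and 5 were at 2.72 and 3.40 and sample 7 at 27.7, against 27.9 to 35.4 in monotransgenic arrays. *Sema6a*, which binds A-type plexins, was 59.7, 51.6 and 36.5 in set 1 monotransgenic and 21.8, 23.1 and 24.2 in removed arrays, with diet arrays between at 26.2 to 44.3. The log2 difference of removed to monotransgenic was -0.70 ± 0.22 (limma adjusted p = 0.317), against 0.33 in set 3. *Sema6d* was 1342, 1379 and 1214 in set 1 monotransgenic and 1629, 1717 and 1522 in diet arrays, without overlap (0.31 ± 0.13, limma adjusted p = 1). *Sema4f* was 2153, 2653 and 1939 in set 3 monotransgenic and 2653, 2474 and 3747 in bitransgenic arrays, with overlap (0.38 ± 0.17, limma adjusted p = 1). *Sema5a*, which is expressed by granule cells, ranged from 566 to 1353 over the 21 arrays, with a mean log2 difference of -0.18 ± 0.12.

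**Figure D3:**
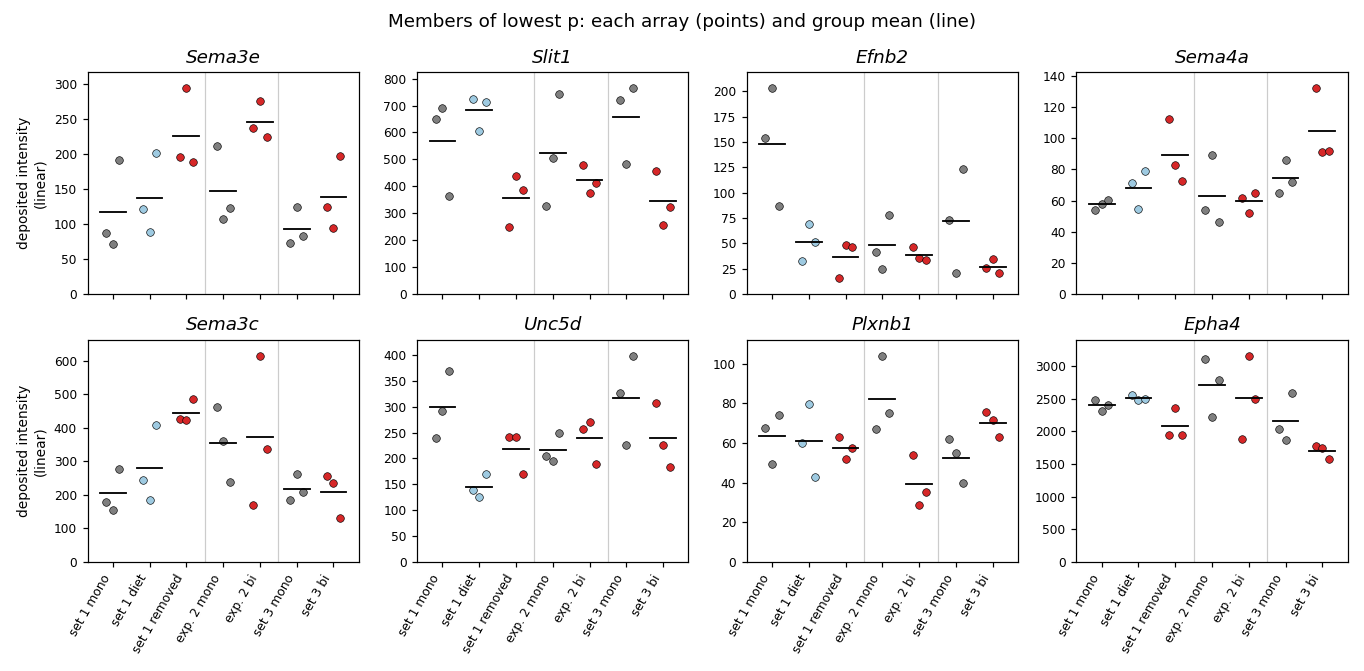
Deposited intensity (linear, from 0) of 8 members of lowest p in each of the 21 arrays, by group (grey monotransgenic, blue diet, red transgene on). Lines are group means of 3 arrays. Sema3e is highest on average in the transgene-on group of each set, and Efnb2 is high in all 3 set 1 monotransgenic arrays.

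Among the semaphorin receptors, the A-type plexins did not move as one. *Plxna1* was 83.0, 57.9 and 67.7 in set 1 monotransgenic, 54.7, 47.0 and 74.5 in diet and 22.7, 40 and 38 in removed arrays, the removed arrays lowest without overlap. It was 16.8, 75.5 and 46.0 against 36.4, 24.0 and 26.0 in experiment 2, and 60.1, 28.3 and 46.3 against 30.2, 22.0 and 22.7 in set 3, with overlap in both. The mean log2 difference was -0.46 ± 0.16 (limma adjusted p = 0.236). *Plxna2*, a receptor for Sema6 ligands, ranged from 314 to 568 and differed by 0.22 ± 0.09 (limma adjusted p = 0.306). *Plxna3* differed by -0.06 ± 0.12 and *Plxna4* by -0.23 ± 0.10 over the 3 sets. In experiment 2 *Plxna4* was 185, 266 and 319 in monotransgenic and 249, 140 and 142 in bitransgenic arrays, with overlap.

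*Nrp1* was 1044, 1082 and 1250 in set 1 monotransgenic, 1286, 1177 and 1339 in diet and 1691, 1608 and 1585 in removed arrays, so that the removed arrays lay above both other groups. The log2 difference of removed to monotransgenic was 0.50 ± 0.20 (limma adjusted p = 0.52). In experiment 2 it was 0.33, at 1687, 1479 and 1377 in monotransgenic and 1501, 2956 and 1934 in bitransgenic arrays, with overlap. It was -0.14 in set 3, where monotransgenic arrays spread from 800 to 1655. *Nrp2*, the receptor for Sema3f and Sema3c, was 245, 245 and 278 in set 1 monotransgenic, 278, 223 and 245 in diet and 338, 297 and 323 in removed arrays. Its differences were 0.32, 0.20 and 0.29 in the 3 sets (mean 0.27 ± 0.12, limma adjusted p = 0.354), without overlap in set 1 and with overlap in experiment 2 and in set 3. *Plxnc1*, the receptor for Sema7a, was 194, 201 and 180 in set 1 monotransgenic and 236, 246 and 233 in removed arrays. In set 3 it was 168, 348 and 180 in monotransgenic and 363, 306 and 269 in bitransgenic arrays, so that monotransgenic replicate 2 alone lay among the bitransgenic values (0.48 ± 0.21, limma adjusted p = 1). Without that array *Plxnc1* passed in set 3, as the 1 member to do so among 73 of 12517 genes. The array's meningeal, CA3 and CA1 marker sums (83.05, 4244 and 1501) also lay within the bitransgenic ranges of set 3. Those ranges were 76.91 to 199.6, 3706 to 4745 and 1377 to 1637. Its neocortex sum (1784) lay above the bitransgenic range (1190 to 1555). The part of these tissue markers in the *Plxnc1* result was not tested. *Plxnb1*, a receptor for Sema4d, was 66.9, 104 and 75.3 in monotransgenic and 54.0, 28.5 and 35.1 in bitransgenic arrays of experiment 2, without overlap (-0.68 ± 0.19, limma adjusted p = 0.161). In set 3 it lay the other way without overlap, at 62.1, 54.8 and 39.8 against 75.8, 71.5 and 63.2. The second *Plxnb1* probe set gave 0.36 in experiment 2, opposite in sign to the brighter one.

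**Figure D4:**
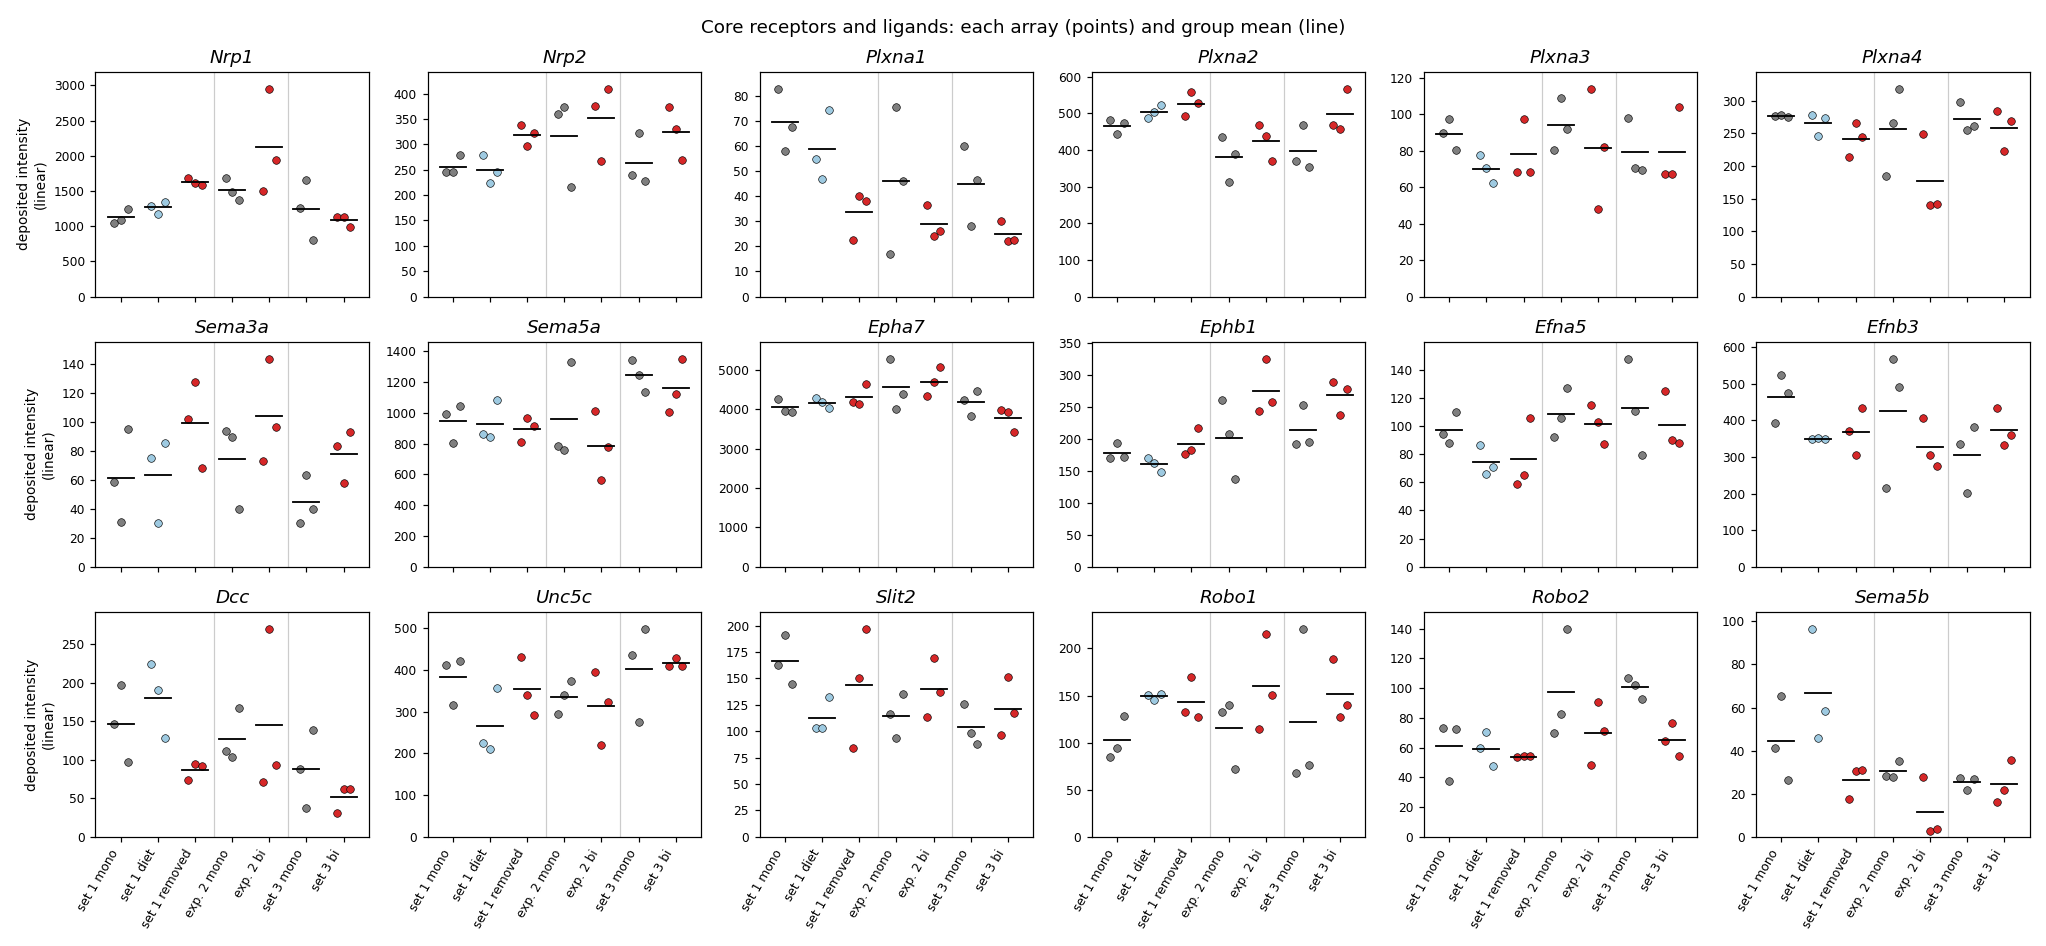
Deposited intensity (linear, from 0) in each of the 21 arrays for 18 core receptors and ligands, with group means of 3 arrays as lines and the colours grey for monotransgenic, blue for diet and red for transgene on. Within set 1 Nrp1 is highest in the removed arrays, its highest value of all is in sample 4 of experiment 2 (2956), and Robo1 is highest in set 3 monotransgenic replicate 2 (221).

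The ephrin with the largest difference was *Efnb2*, a membrane ligand of EphB receptors and EphA4 that also marks arteries. It was 154, 203 and 86.7 in set 1 monotransgenic, 32.6, 69.4 and 51.2 in diet and 15.9, 48.6 and 46.3 in removed arrays. Both bitransgenic groups lay below the monotransgenic group without overlap, with log2 differences of -1.60 ± 0.40 (removed; limma adjusted p = 0.165) and -1.27 ± 0.40 (diet; limma adjusted p = 0.855). Removed and diet arrays overlapped and differed by -0.33 ± 0.40. In experiment 2 *Efnb2* was 41.7, 25.2 and 78.5 against 46.0, 35.4 and 33.8, and in set 3 it was 73.4, 20.3 and 123 against 25.3, 34.7 and 21.1, with overlap in both. The 6 arrays with *Efnb2* at 73.4 or more were the 6 in which the meningeal sum was at 585.4 or more, a pattern seen after the values were known. The highest *Efnb2* value in the other 15 arrays was 69.4, and their highest meningeal sum was 239.6. The part of meningeal RNA in this difference was not tested.

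Other ephrins differed less. *Efnb3*, an EphB ligand that acts at the postsynaptic side, was 392, 525 and 476 in set 1 monotransgenic and 348, 352 and 350 in diet arrays, without overlap (-0.38 ± 0.26, limma adjusted p = 1). *Efna5*, a GPI-anchored ligand, ranged from 58.5 to 148 with a mean difference of -0.10 ± 0.12. *Efna3* was 343, 349 and 307 in set 1 monotransgenic and 502, 397 and 443 in removed arrays, without overlap (0.41 ± 0.18, limma adjusted p = 0.577), and differed by 0.02 and 0.18 in the other sets.

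*Epha4*, a receptor for both ephrin classes that limits spine growth, had a small difference of one sign in every set. It was 2479, 2310 and 2408 in set 1 monotransgenic, 2563, 2487 and 2496 in diet and 1953, 2357 and 1947 in removed arrays, and 2034, 1862 and 2592 against 1778, 1742 and 1581 in set 3. Groups did not overlap for removed against diet and in set 3, and the mean over the 3 sets was -0.27 ± 0.09 (limma adjusted p = 0.176). The 4 other probe sets of *Epha4* were also negative over the 3 sets, from -0.33 to -0.02. *Epha7* ranged from 3431 to 5287 and differed by -0.02 ± 0.06. *Ephb1*, which has been linked to neural progenitor placement in the dentate gyrus, was 261, 208 and 137 in monotransgenic and 244, 326 and 258 in bitransgenic arrays of experiment 2, with overlap. The differences were 0.13, 0.51 and 0.32 in the 3 sets, and the mean was 0.32 ± 0.12 (limma adjusted p = 0.266). *Epha3* was 175, 130 and 159 against 154, 283 and 239 in experiment 2, with overlap (0.54 ± 0.21, limma adjusted p = 0.266), and its mean over the 3 sets was 0.32 ± 0.12.

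Of the Slits, *Slit1*, a repellent ligand of Robo receptors, had the lowest p. It was 650, 690 and 365 in set 1 monotransgenic, 726, 607 and 714 in diet and 248, 437 and 385 in removed arrays. The removed arrays all lay below the diet arrays (-0.91 ± 0.28, limma adjusted p = 0.53) and overlapped the monotransgenic arrays through replicate 3 (-0.61 ± 0.28, limma adjusted p = 0.611). In experiment 2 it was 327, 504 and 743 against 481, 376 and 414, with overlap. In set 3 it was 722, 483 and 764 against 458, 255 and 324, without overlap (-0.94 ± 0.28, limma adjusted p = 1). The mean over the 3 sets was -0.60 ± 0.16 (limma adjusted p = 0.116), and the second *Slit1* probe set gave -0.40. *Slit2* ranged from 84.3 to 197 and differed by 0.13 ± 0.14. *Slit3* was 37.7, 28.1 and 25.5 against 21.2, 0.94 and 10.8 in experiment 2, without overlap (-0.71 ± 0.26, limma adjusted p = 0.243), and 24.2, 25.0 and 13.5 against 30.3, 25.3 and 41.5 in set 3, where it lay the other way without overlap (0.40 ± 0.26). The lowest value, 0.94, was in sample 4, the array of highest actin ratio.

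*Robo1* had differences of 0.48, 0.53 and 0.45 in the 3 sets, with a mean of 0.49 ± 0.19 (limma adjusted p = 0.287). It was 84.2, 94.6 and 128 in set 1 monotransgenic, 151, 145 and 152 in diet and 133, 170 and 127 in removed arrays, so that both bitransgenic groups lay above the monotransgenic group on the normalized scale. In set 3 it was 67.4, 221 and 75.8 against 189, 127 and 140, and monotransgenic replicate 2 had the highest value of all 21 arrays. Over the 3 sets a second *Robo1* probe set gave 0.55. *Robo2* was 107, 102 and 92.8 against 64.5, 76.8 and 54.6 in set 3, without overlap (-0.48 ± 0.24, limma adjusted p = 1). It differed by -0.05 in set 1 and -0.20 in experiment 2.

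The netrin receptors had their lowest p values in set 1. *Unc5d* was 239, 292 and 369 in monotransgenic, 138, 126 and 170 in diet and 241, 241 and 170 in removed arrays. Diet arrays lay below monotransgenic arrays without overlap (-0.97 ± 0.22, limma adjusted p = 0.227). Removed minus diet was 0.56 ± 0.22 (limma adjusted p = 0.826). Replicate 3 of the removed and of the diet arrays nearly met, at 7.56 and 7.55 on the normalized scale and both at 170 as deposited. *Unc5c* was 412, 317 and 422 in monotransgenic and 226, 210 and 358 in diet arrays, with overlap (-0.54 ± 0.22, limma adjusted p = 1), and differed by -0.04 ± 0.13 over the 3 sets. *Dcc*, the attractive netrin receptor, was 146, 197 and 96.5 in monotransgenic, 224, 190 and 128 in diet and 73.5, 94.3 and 91.7 in removed arrays, where removed arrays lay below the others on deposited values. Removed and diet arrays did not overlap (-0.86 ± 0.39, limma adjusted p = 0.943). In experiment 2 sample 4 was at 270 and the other bitransgenic arrays at 71.6 and 92.9, and the mean over the 3 sets was -0.31 ± 0.23. Among the ligands, *Ntn5* was 50, 59.3 and 30.4 in monotransgenic, 64.1, 73.7 and 36.9 in diet and 25.8, 4.5 and 17.6 in removed arrays, the removed arrays lowest without overlap. The log2 difference of removed to diet was -1.21 ± 0.35 (limma adjusted p = 0.436) and that of removed to monotransgenic was -0.98 ± 0.35 (limma adjusted p = 0.397). The bitransgenic to monotransgenic difference was 0.45 in experiment 2 and 0.11 in set 3.

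No difference between sets passed for any member. Experiment 2 also differed from the other sets in the sex read from *Xist* and *Eif2s3y*, and the part of sex was not tested. The lowest p values were those of *Efnb2* (1.65 ± 0.57, limma adjusted p = 0.511) and *Ntn5* (1.43 ± 0.50, limma adjusted p = 0.511) for experiment 2 minus set 1, *Sema6a* (1.03 ± 0.32, limma adjusted p = 1) for set 3 minus set 1, and *Plxnb1* (1.04 ± 0.27, limma adjusted p = 0.492) for set 3 minus experiment 2. Unadjusted p under 0.05 was reached by 7 members (12.7%, against 7.91% of all genes), 6 (10.9%, against 3.50%) and 4 (7.27%, against 8.09%) in these 3 comparisons.

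The 13 members under the filter were *Epha1*, *Epha2*, *Epha8*, *Ephb4*, *Efna4*, *Ntn1*, *Ntn3*, *Plxnd1*, *Sema3b*, *Sema3d*, *Sema3f*, *Sema3g* and *Sema6c*. *Sema3f*, a neuropilin 2 ligand known to guide mossy fibers, lay between 0.98 and 25.7, and *Ntn1*, the prototype netrin, between 1.04 and 20.4. With no filter, none of the 68 members passed either. For 29 tested genes a further 47 probe sets passed the filter, and 36 of the 47 had the sign of the brightest probe set over the 3 sets, while by set the number was 41 (removed against monotransgenic), 24 (experiment 2) and 29 (set 3).

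The genes downstream and beside these receptors were read from 2 lists. Of 52 intracellular partners (among them collapsin response mediators, kinases and adaptors) 46 were measured, and none passed in the comparisons. Over the 3 sets 27 were higher and 19 lower, with a median log2 difference of 0.02. The lowest p values were those of *Ngef*, the exchange factor that EphA receptors use (-0.52 ± 0.13, limma adjusted p = 0.0947), *Nck2*, an adaptor (0.41 ± 0.10, limma adjusted p = 0.0954), and *Abl2*, a kinase (0.16 ± 0.07, limma adjusted p = 0.36). All 24 other co-receptors and cues were measured and none passed, with 10 higher, 14 lower and a median of -0.02. Their lowest p values were those of *Ntng1*, a netrin-G gene (-0.81, limma adjusted p = 0.0622), *Chl1*, a cell adhesion molecule (-0.22, limma adjusted p = 0.236), and *Flrt3*, an Unc5 ligand (-0.31, limma adjusted p = 0.339).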

How the data were processed

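Each probe set has 1 linear intensity per array, which the authors scaled to a mean of 150 after trimming 2% of probe sets at each end, as checked on the deposited values. What tool produced them: not given in the sources used here. Of 45101 probe sets, 64 controls were left out, 34945 had 1 gene symbol according to the platform annotation, 932 several and 9160 none. Intensities are printed as deposited with SDs. Deposited intensities were transformed as log2(value + 16) and quantile normalized, since array medians spread by 0.30 (5.19 to 5.49). The filter kept the upper 60% by mean level (27022 probe sets, at or above 4.90 on the log2 scale), and the brightest probe set stood for its gene.

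One limma fit (limma 3.58.1, R 4.3.3, data.table at version 1.17.8) estimated every group mean jointly (21 arrays; residual degrees of freedom: 14) and moderated variances along a trend. Errors of log2 differences are its standard errors. Tests were two-sided, with Benjamini-Hochberg adjustment over 12499 genes and a threshold of 0.05; the fit was also tested on simulated data. Groups of 3 arrays limit the precision. The members and lists were chosen with earlier results of these data known. Members named with values were those past the threshold and the 4 of lowest p in each of the first 6 comparisons. A list of core receptors and ligands was added. It included *Ephb2*, for which no probe set with that symbol was found. All but this gene are shown in the text or the plots. Others were named after their values were seen, as were *Xist*, *Eif2s3y* and *Ogn*. From each pathway list the 3 of lowest p over the 3 sets were named. Alternatives were pseudocounts of 1 and 64, no filter or the upper 40%, the scale as deposited or centred at the 75th percentile, 1 set alone, averaged probe sets, array weights, a fit without the trend, title prefix as a factor in set 3, the removal of the 2 experiment 2 arrays of highest actin ratio, a threshold of 0.1, and omission of each array in turn. Figures were drawn with matplotlib 3.10.9.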

Additional observations from a re-analysis of the deposited data

How the results depend on the processing

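The count of members past the adjusted threshold was 0 in every comparison under pseudocounts of 1 and 64, no filter, the upper 40%, the deposited scale, 75th percentile centring, the mean of probe sets, no variance trend and, in set 3, the title prefix. With array weights it was 3 for removed against monotransgenic (254 of all 12499 genes passed), 1 for diet against monotransgenic (41 genes), 4 in experiment 2 (890), 1 in set 3 (39), 14 over the 3 sets (1374) and 1 for experiment 2 minus set 1 (75). With the arrays of set 1 alone it was 4 for removed against monotransgenic (*Efnb2*, *Nrp1*, *Sema3c*, *Sema4c*), when 330 of all genes passed, and 1 for diet against monotransgenic (*Unc5d*), when 32 passed. At a threshold of 0.1 it was 1 over the 3 sets (*Sema3e*), of 128 genes. Without the 2 experiment 2 arrays of highest actin ratio it was 5 over the 3 sets (*Epha4*, *Ephb1*, *Plxna1*, *Sema3e*, *Slit1*), when 415 of 12505 genes passed, and 0 in experiment 2, when 517 passed. Leaving out each array gave 0 to 4 in experiment 2, 0 to 1 in set 3 and 0 to 5 over the 3 sets, and 0 to 0 in the other comparisons run. The cause was not tested. The log2 difference of *Slit3* in experiment 2 ran from -1.71 to -0.28, that of *Ntn5* for removed against diet from -2.01 to -0.59, and that of *Epha4* in set 3 from -0.47 to -0.12. *Sema3e* over the 3 sets ran from 0.59 to 0.88 and *Slit1* from -0.77 to -0.50. *Plxnb1* in experiment 2 ran from -0.87 to -0.16. Groups of 3 arrays and the wider spread of experiment 2 limit what these counts can show, and signals near the filter have the least precision.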
